A study of Mus musculus with 90 samples.

Results

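The 3 mouse genes of the angiopoietin-like family described here, Angptl4, Angptl6, and Angptl8, were followed in liver RNA. They were taken by symbol from a table of 24312 gene symbols, in which each of the 3 has 1 RefSeq ID (NM_020581, NM_145154, and NM_001080940). Earlier results of these data were known when the 3 were chosen. The table covers 54 livers of single mice in 5 experiments under night-restricted feeding (NRF), in which food is given only in the dark phase. All RNA was taken at ZT14, early in the dark phase, apart from 1 group at ZT10, late in the light phase.

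The NRF experiment compared ZT10, ZT14-unfed, and ZT14-fed livers (n = 2 each, ribosomal RNA depleted), and every other experiment used poly(A)-enriched RNA. Injected mice were unfed with vehicle, or fed with vehicle, dexamethasone (dex, 1 mg/kg, a synthetic glucocorticoid), S961 (an antagonist of the insulin receptor), or both (n = 4 each). The L-GRKO experiment used unfed mice with floxed Nr3c1, the gene of the glucocorticoid receptor (GR), given an AAV8 vector with GFP or Cre under the hepatocyte promoter TBG (n = 4 each). The L-IRSdKO experiment used mice with floxed Irs1 and Irs2, with or without Cre driven by the albumin promoter, all fed and all given dex (n = 4 each). With no unfed group and none without dex, the genotypes are compared there only in that state. The obesity experiment crossed chow or high-fat diet for 10 weeks (lean and obese) with ZT14-unfed and ZT14-fed (n = 3 each). NRF and injected mice were male C57BL/6N of 10 weeks, L-GRKO mice were adults on C57BL/6N, L-IRSdKO mice were 10 weeks old on C57BL/6J, and the diets began in male mice at 5 weeks. The labels name S961 with several numbers in its place, and it is written as S961 for all 8 livers given it. GR and FOXO1 peaks were those found in both replicates of ZT14-unfed livers, each pooled from several mice, and DNase hypersensitive sites (DHSs) came from the combined reads of unfed and fed livers. All 3 are lists of positions.

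Angiopoietin-like proteins are secreted, and several of them set where circulating triglyceride is unloaded by holding back lipoprotein lipase, the enzyme that frees fatty acids at the vessel wall. ANGPTL4 is the member known from fasting, when it blocks the lipase in fat, and its gene is a classical target of PPARα and of glucocorticoids. ANGPTL8 is a short member made in liver and fat after a meal, which acts together with relatives to turn triglyceride away from muscle. ANGPTL6, also called angiopoietin-related growth factor, comes mainly from liver and is known from work on energy expenditure rather than on the lipase.

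On mm9, Angptl4 lies on the minus strand at chr17:33910695-33918520 and has up to 7 exons in the GENCODE annotation. Its only GR peak within 20 kb was centred 6711 bp downstream of the transcription start site (TSS), in the 3′ untranslated part of the last exon, and overlapped a FOXO1 peak and a DHS there. That peak held 1 match to the core of the glucocorticoid response element (GRE), ACANNNTGT, and 1 match to the forkhead (FOX) motif TGTTTAC that FOXO proteins bind. Because the region is transcribed, each match is shown with only 10 bases on either side, on the plus strand of mm9, with the match in capitals.
Angptl4 GRE core, chr17:33911829-33911857: acaacagagaACAAAATGTtctgaggttg
Angptl4 FOX, chr17:33911773-33911799: ccgaggaacaTGTTTACttgaactttg

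Among all 10446 GR peaks, 20.3% held the GRE core, 7.29% held the FOX letters, and 1.42% held a match to each. The motif letters were searched on both strands, and a match is a description of the bases and not of a bound site. A peak present in all 3 lists lay anywhere inside 7.01% of the 22133 genes placed on mm9, in exons or introns. How many genes have one in the last exon was not counted. Within 50 kb of the Angptl4 TSS there were 3 GR peaks, a count that 8.91% of genes reached, and 4 FOXO1 peaks, which 3.33% reached. The other 2 GR peaks lay in introns of Kank3 and Ndufa7. Every FOXO1 peak apart from the one inside Angptl4 was nearer to the start of Kank3 or Ndufa7. A second FOXO1 peak stood 14936 bp upstream of Angptl4 and 14009 bp from the Kank3 start, the nearest one. It had a match to the FOX motif and to GGNCANAGG, the core of a DR1 element of the kind nuclear receptors such as PPARα bind. A DHS at chr17:33933523-33933690 overlapped the peak but held neither match. The peak is shown whole, since it is the only other peak within 50 kb of Angptl4 with a FOX match, and capitals mark the DR1 core and then the FOX letters.
Angptl4 upstream FOXO1 peak, chr17:33933367-33933546: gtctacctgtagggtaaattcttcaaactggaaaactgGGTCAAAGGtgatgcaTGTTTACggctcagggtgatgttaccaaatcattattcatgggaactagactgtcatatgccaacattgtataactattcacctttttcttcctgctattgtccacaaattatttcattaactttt

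The FOX letters occurred in 18.8% of the 8546 FOXO1 peaks and the DR1 core in 8.83%. Angptl8, named Gm6484 in the annotation, lies at chr9:21639954-21641790 on the plus strand, wholly inside Dock6, a gene read from the other strand, and shares no exon base with it. One of its 2 GR peaks within 50 kb was centred 128 bp before the TSS, where 1.13% of genes have a GR peak within 200 bp on either side. The other, 12614 bp upstream in a Dock6 intron, overlapped its only FOXO1 peak and a DHS. Within 50 kb, 17.1% of genes had at least 2 GR peaks and 35.3% had at least 1 FOXO1 peak. None of the 5 motifs searched, which also included TGACGTCA (CRE) and CACGTG (E-box), matched either GR peak. The peaks are printed on the plus strand, which is the strand of the gene, with the bases shared with the overlapping peaks of the other lists in capitals.
Angptl8 start-site GR peak, chr9:21639737-21639916: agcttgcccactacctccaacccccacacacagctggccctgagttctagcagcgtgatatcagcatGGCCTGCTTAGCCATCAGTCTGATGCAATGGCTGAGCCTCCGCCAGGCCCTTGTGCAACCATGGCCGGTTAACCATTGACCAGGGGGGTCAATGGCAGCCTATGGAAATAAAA
Angptl8 upstream GR peak, chr9:21627251-21627430: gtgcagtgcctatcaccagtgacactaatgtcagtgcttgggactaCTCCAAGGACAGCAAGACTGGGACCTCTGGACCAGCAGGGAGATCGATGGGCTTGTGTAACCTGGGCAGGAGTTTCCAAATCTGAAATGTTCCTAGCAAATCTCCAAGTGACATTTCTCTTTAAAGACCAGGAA

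The start-site peak falls within the Angptl8 promoter of the RefSeq table (GRCm38.p6), from 217 to 38 bases before the RefSeq start, and neither that promoter nor the one of Angptl6 held any of the 5 motifs. Angptl8 had 16 DHSs within 50 kb, a number that 1.37% of genes reached, against a median of 6 over all genes. Angptl6, at chr9:20678253-20684154 on the minus strand, had no GR and no FOXO1 peak within 50 kb, and its 7 DHSs are a count that 44.5% of genes reached. Its closest DHS, 1400 bp downstream of the TSS, lay in an exon. The map of peaks by distance from each start shows the stacked peaks of Angptl4 and Angptl8 and the DHSs alone at Angptl6. Peak occupancy by condition was not analysed here, so no change at these sites is reported.

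**Figure D1:**
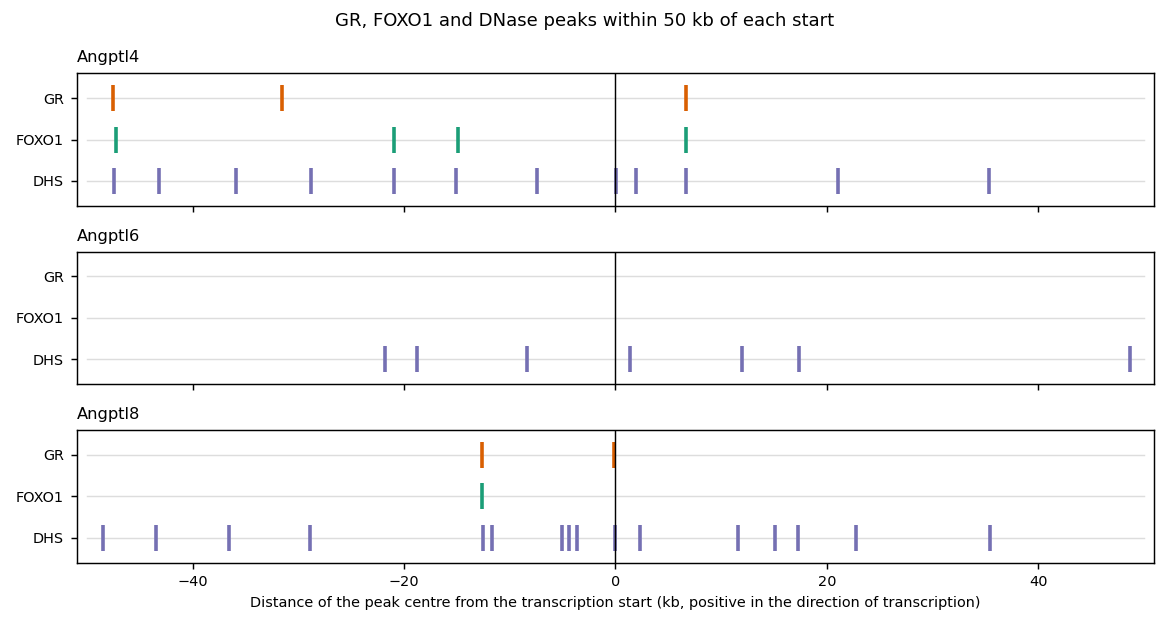
Centres of GR peaks, FOXO1 peaks and DHSs (rows) by distance in kb from the transcription start of Angptl4, Angptl6 and Angptl8 (panels), positive in the direction of transcription. All 3 lists meet 6711 bp downstream of the Angptl4 start and near 12614 bp upstream of the Angptl8 start, and Angptl6 has 7 DHSs and no other peak.

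In the livers, levels are given as RPKM, a read count divided by transcript length and by the size of the library. Angptl4 spanned 14 to 179 RPKM over the 54 libraries, Angptl8 3.60 to 268, and Angptl6 2.81 to 20.5. Within the obesity experiment the highest library was 42.5-fold above the lowest for Angptl8, 7.60-fold for Angptl4, and 1.82-fold for Angptl6. Levels are ordered only within an experiment, because the summed RPKM of 8 hepatocyte genes was 3375 to 3983 in the L-IRSdKO experiment and 35035 to 81272 in the others. The value that 1 counted read or read pair takes in the table gave approximate library sizes of 6.47 to 13.5 M reads in injected mice and 15.2 to 62.1 in the NRF, L-GRKO, and obesity experiments. At these sizes Angptl8 rested on at least about 49 reads and Angptl6 on at least about 39. No size is given for the L-IRSdKO libraries, where the same estimate was below the read numbers that the study lists. Adipocytes also make ANGPTL4 and ANGPTL8, and the adipocyte gene Adipoq was at most 0.577 RPKM in every library, while 6 adipocyte genes summed to 5.13 to 60.1 RPKM. No group had more than 2 of the 6 at a mean over 0.5 RPKM. The obesity experiment had its highest sum, 42.4 RPKM, in unfed obese replicate 2, in which Cfd was 27.5 RPKM, and the part of such cells in the results was not tested. Lymphocyte genes summed to at most 1.89 RPKM. In bulk liver, fewer cells of a type and less RNA per cell cannot be told apart.

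**Figure D2:**
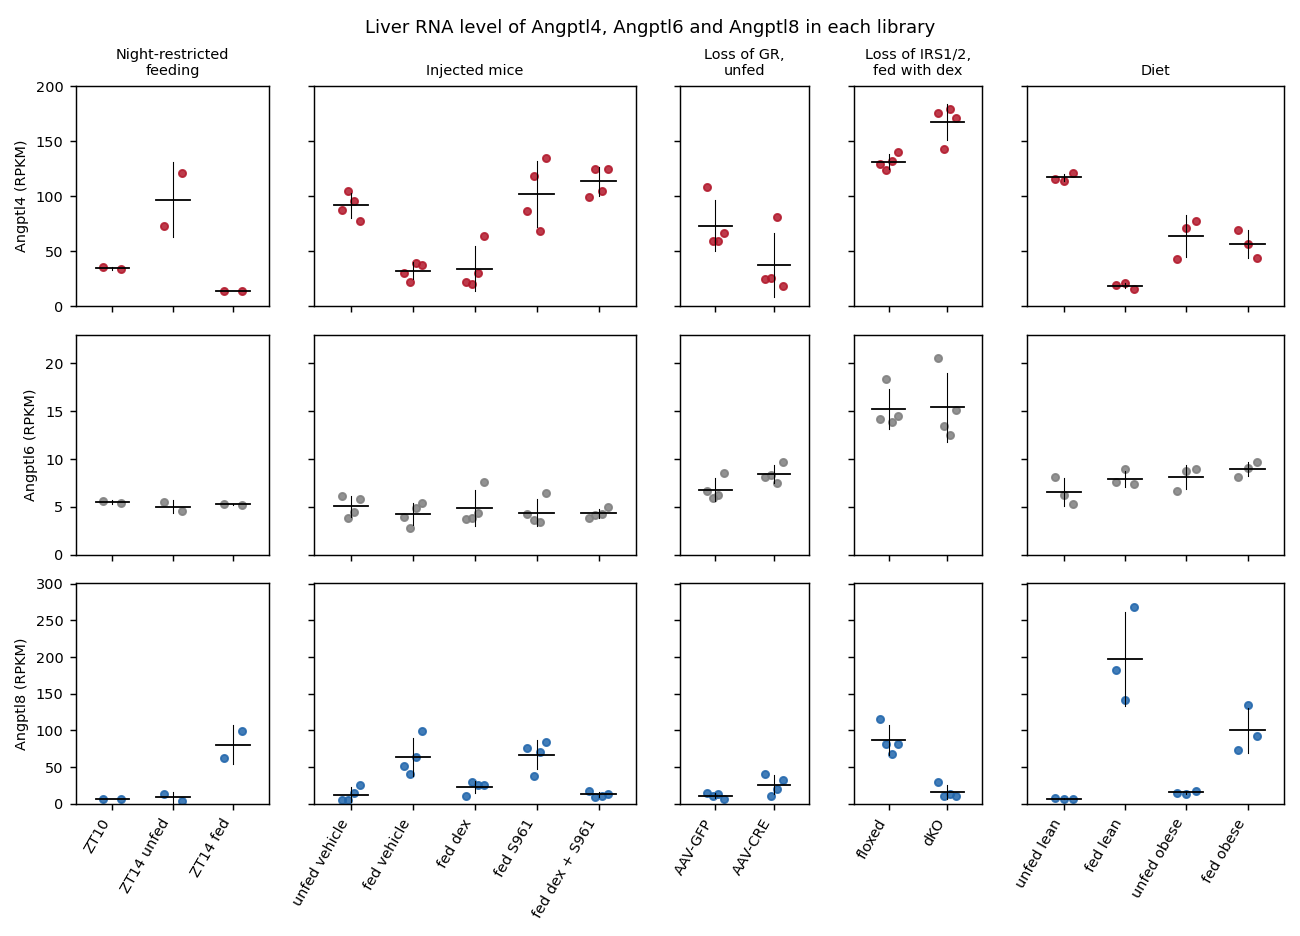
RPKM of Angptl4, Angptl6 and Angptl8 (rows, linear axes from 0) in each of the 54 libraries by group and experiment (columns), with the group mean as a horizontal line and 1 SD as a vertical line. Fed lean livers hold 142 to 268 RPKM of Angptl8 and 16.0 to 20.7 of Angptl4, against 6.31 to 8.44 and 114 to 121 in unfed lean livers.

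The NRF experiment compared ZT14 livers with and without the meal, and ZT14-unfed with ZT10 livers. The latter differ in clock time, in light or dark, and in hours without food, which cannot be told apart here. Angptl4 was 35.5 and 33.4 RPKM at ZT10, 72.6 and 121 at ZT14-unfed, and 14 and 14.1 at ZT14-fed. The 3 groups of 2 mice did not overlap, with the highest values in mice kept from food and the lowest after the meal. Both comparisons share the ZT14-unfed mice. On the log2(RPKM + 0.5) scale used for all differences, Angptl4 fell with the meal by 2.70 (SE 0.21, limma with Benjamini-Hochberg (BH) adjusted p = 0.00158 against a threshold of 0.01). Without fed replicate 1 the limma adjusted p was 0.0291 and without fed replicate 2 it was 0.0350, both short of 0.01. Between ZT10 and ZT14-unfed it was higher by 1.43 (SE 0.21), with a limma adjusted p of 0.0122 that missed the threshold. It was 2.50e-04 and 0.00907 without unfed replicate 1 or 2, and 0.0632 and 0.0666 without ZT10 replicate 1 or 2.

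Angptl8 was 6.91 and 6.71 RPKM at ZT10, 13.9 and 3.60 at ZT14-unfed, and 61.9 and 99.5 at ZT14-fed. Both fed livers stood above every other liver, and the unfed mice lay on either side of the ZT10 mice. The meal difference was 3.36 (SE 0.51, 95% interval 2.16 to 4.57), the seventh largest in size of 10907 genes, yet its limma adjusted p of 0.0155 missed 0.01 with 2 mice per group. With 1 mouse left out it was 4.27 and 2.46 without unfed replicate 1 or 2 (limma adjusted p of 1.20e-04 and 0.00558), and 3.70 and 3.02 without fed replicate 1 or 2 (0.0678 and 0.134). Without food the difference from ZT10 was 0.07 (SE 0.51, limma adjusted p = 0.949). Angptl6 stayed between 4.55 and 5.66 RPKM in the 6 livers, with a meal difference of 0.06 (SE 0.12, limma adjusted p = 0.768). Of all genes tested, 0.568% rose and 0.422% fell with the meal, and 0.376% rose and 0.788% fell between ZT10 and ZT14-unfed. The share of rises among calls was 57.4% for the meal and 41.5% with each library divided by its median ratio to the other libraries, and 32.3% and 62.2% for ZT14-unfed against ZT10. That scaling moved the median difference of all genes from 0.12 to 0.01 for the meal, with Angptl4 at -2.83 and Angptl8 at 3.24.

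Injected mice repeated the meal comparison with vehicle. Angptl4 was 87.6, 105, 95.9, and 77.8 RPKM in unfed and 30.5, 21.7, 38.8, and 37.4 in fed mice, without overlap. It fell by 1.52 (SE 0.28, limma adjusted p = 0.00794 against 0.05). Angptl8 was 5.23, 5.24, 14.4, and 26.1 RPKM in unfed and 52.2, 40.3, 64.2, and 99.9 in fed mice, again without overlap. It rose by 2.52 (SE 0.44, limma adjusted p = 0.00607), and the ratio of the group means was 5.03. Angptl6 differed by -0.24 (SE 0.22, limma adjusted p = 0.599), with values from 2.81 to 6.19 RPKM in the 8 livers. Here 2.55% of 11251 genes rose and 0.578% fell, with 81.5% of calls upward before and 54.2% after median-ratio scaling.

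With the drugs, Angptl4 rose under S961 and under the combination, and Angptl8 fell under the combination. Both were injected into the whole animal, S961 to block the insulin receptor and dex to supply a synthetic glucocorticoid. After S961 the paper reports raised glucose, insulin, and nonesterified fatty acids in blood, and with both drugs lowered corticosterone. The part of these changes in the liver differences was not tested. Under S961, Angptl4 was 86.7, 118, 68.7, and 135 RPKM, all above the 4 fed vehicle mice and overlapping the unfed mice. It rose by 1.64 (SE 0.28, limma adjusted p = 0.00561), while 0.942% of genes rose and 0.960% fell. Angptl8 under S961 was 75.8, 38.0, 71.1, and 84.0 RPKM, within the range of fed vehicle mice apart from the lowest value. Its difference was 0.09 (SE 0.44, 95% interval -0.83 to 1.00), an interval that spans nearly a log2 unit on either side of 0.

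Dex alone gave 21.6, 19.9, 30.5, and 64.0 RPKM of Angptl4. Replicates 1 and 2 lay below every fed vehicle mouse, replicate 3 among them, and replicate 4 above them all, and the difference was -0.05 (SE 0.28, 95% interval -0.64 to 0.55), which turned to 0.05 after median-ratio scaling. Angptl8 with dex was 10.4, 29.5, 26.3, and 25.2 RPKM, below all 4 fed vehicle mice. The difference was -1.49 (SE 0.44), at a limma adjusted p of 0.0697 that missed 0.05. The libraries carry 2 series of library numbers, the second of which holds replicate 4 of each group, and with a term for the series the same difference had an adjusted p of 0.0201. Within the first series alone it was -1.33 (limma adjusted p = 0.0746), and the second holds 1 library per group. With dex, 1.00% of genes rose and 2.19% fell, and 9 of 14 glucocorticoid targets rose, led by Ddit4, Mt2, Sgk1, and Mt1, with a median of 1.37 against -0.10 over all genes.

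Given together, dex and S961 left Angptl4 high and Angptl8 low. Angptl4 was 99.2, 125, 105, and 125 RPKM, within the range of S961 alone. It rose by 1.84 against fed vehicle (SE 0.28, limma adjusted p = 5.56e-04). Angptl8 was 17.7, 9.87, 10.9, and 13.5 RPKM, below every fed mouse given vehicle or S961 alone and within the range of unfed mice. It fell by 2.21 (SE 0.44, limma adjusted p = 0.00338). Angptl6 was 2.81 to 7.62 RPKM over the 16 fed livers, and its 3 drug differences lay between 0.05 and 0.16 (limma adjusted p of 0.751 to 0.960). In the combination 2.70% of genes rose and 7.90% fell. Median-ratio scaling moved the median of all genes from -0.14 to -0.01 there, with Angptl4 at 1.98 and Angptl8 at -2.07.

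The 3 drug comparisons share the fed vehicle mice, so a library that is off there enters each. An interaction of dex and S961 asks whether the combination differs from the sum of its parts. It was 0.24 for Angptl4 (SE 0.40) and -0.81 for Angptl8 (SE 0.62, 95% interval -2.11 to 0.48), with a limma adjusted p of 1 for each. Across the table the interaction called 0% of 11251 genes, with 513 at an unadjusted limma p under 0.05. The shares of rises among calls were 31.5% for dex, 49.5% for S961, and 25.5% for the combination, and 57.5%, 67.2%, and 54.6% after median-ratio scaling.

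**Figure D3:**
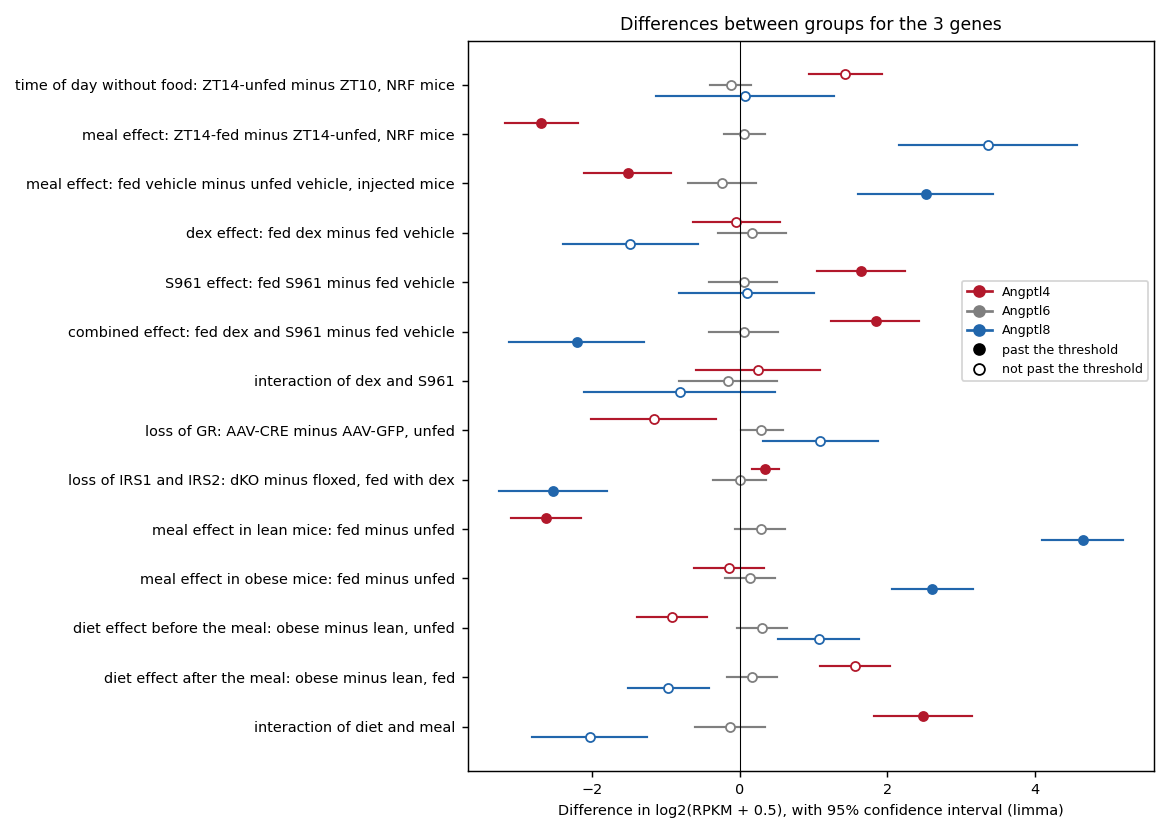
Difference of each of the 14 comparisons (rows) on the log2(RPKM + 0.5) scale, with its 95% interval, for Angptl4, Angptl6 and Angptl8 (colours), with filled points past the threshold of 0.01 (NRF and obesity experiments) or 0.05 (others). The Angptl4 and Angptl8 points lie on opposite sides of 0 in each meal comparison, and every Angptl6 point lies between -0.24 and 0.30. For the meal in obese mice the Angptl4 interval, -0.62 to 0.33, spans 0.

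Loss of GR was examined in unfed mice. Nr3c1 was 12.8 to 16.2 RPKM with AAV-GFP and 3.93 to 5.35 with AAV-CRE, and fell by 1.58 (SE 0.12, limma adjusted p = 6.83e-05). Angptl4 was 108, 59.3, 59.1, and 66.8 RPKM with AAV-GFP and 25, 25.9, 80.8, and 18.3 with AAV-CRE. Replicates 1, 2, and 4 of AAV-CRE lay below every AAV-GFP liver, and replicate 3 lay above 3 of the AAV-GFP livers, although its Nr3c1 of 4.14 RPKM was as low as in the others. With all 8 livers the difference was -1.17 (SE 0.39, limma adjusted p = 0.108), and without AAV-CRE replicate 3 it was -1.62 (limma adjusted p = 0.00378), past 0.05. Without AAV-GFP replicate 1, at 108 RPKM, it was -0.96 (limma adjusted p = 0.229), and leaving out any other single mouse gave a limma adjusted p of 0.128 to 0.251.

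Angptl8 was 14.3, 10.2, 12.9, and 6.87 RPKM with AAV-GFP and 40.5, 11.0, 20.4, and 32.0 with AAV-CRE. Only replicate 2 of the AAV-CRE mice lay within the AAV-GFP range. The difference of 1.09 (SE 0.35) had a limma adjusted p of 0.1, and without that replicate it was 1.44 (limma adjusted p = 0.0187). Leaving out any other single mouse gave 0.83 to 1.23 (limma adjusted p of 0.101 to 0.234). Angptl6 was 5.92 to 8.54 RPKM with AAV-GFP and 7.54 to 9.68 with AAV-CRE, a difference of 0.29 (SE 0.13, limma adjusted p = 0.231). Over 11649 genes 4.46% rose and 2.22% fell, and rises made up 66.7% of calls before and 44.6% after median-ratio scaling. In all, 9 of 14 glucocorticoid targets fell, led by Zbtb16, Fkbp5, Ddit4, and Tsc22d3, with a median of -1.40 against 0.08 over all genes.

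In fed mice given dex, loss of IRS1 and IRS2 asked what insulin signalling adds inside the hepatocyte. Irs1 was 2.21 to 4.73 RPKM in floxed mice and 0.149 to 0.321 in L-IRSdKO mice. Irs2, already low at 0.614 to 5.61 RPKM in floxed mice, was 0.272 to 1.00 in L-IRSdKO mice and did not pass the test (difference -0.79, SE 0.50, limma adjusted p = 0.308). Angptl8 was 116, 82.2, 68.1, and 81.5 RPKM in floxed and 30.1, 10.2, 13.4, and 10.1 in L-IRSdKO mice, without overlap. It fell by 2.54 (SE 0.33, limma adjusted p = 0.00318).

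Angptl4 was 129, 124, 132, and 140 RPKM in floxed and 176, 143, 179, and 171 in L-IRSdKO mice. The groups did not overlap, and it rose by a small step of 0.34 (SE 0.08, limma adjusted p = 0.0225), one that 4544 of 12966 genes matched or exceeded in size. Leaving out a single mouse raised the adjusted p to as much as 0.0665, past 0.05 without floxed replicate 1 or 2 or L-IRSdKO replicate 3 or 4. Angptl6 differed by less than 0.01 (SE 0.16, 95% interval -0.36 to 0.36), with 12.5 to 20.5 RPKM in the 8 livers. Calls were common here, with 9.06% of genes up and 8.31% down, so a call for Angptl4 or Angptl8 stands against many others. Summed genes of Kupffer cells, the resident macrophages of liver, were 145 to 269 RPKM in floxed and 258 to 330 in L-IRSdKO mice. Summed adipocyte genes were 18.4 to 31.0 and 33.2 to 60.1 RPKM. In each group only 1 of the 6 genes had a mean over 0.5 RPKM, so each sum rests mostly on 1 gene. Adipoq, Cfd, and Retn were 0 in L-IRSdKO mice. Summed cholangiocyte genes were 19.7 to 46.2 and 7.87 to 13.9 RPKM, and the part of any of these lists in these differences was not tested.

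In its comparisons the obesity experiment, whose 4 groups each enter more than 1 of them, asked whether the response to the meal is kept on a high-fat diet. In lean mice Angptl4 was 116, 114, and 121 RPKM unfed and 19.1, 20.7, and 16.0 fed, 6.31-fold apart in the mean. It fell by 2.63 (SE 0.22, limma adjusted p = 1.38e-04). Obese mice had 42.4, 71.2, and 77.8 RPKM unfed and 69.2, 56.6, and 44.0 fed, overlapping groups that lay between the lean ones. The meal difference there was -0.15 (SE 0.22, 95% interval -0.62 to 0.33).

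Whether diet altered the meal effect was tested directly. For Angptl4 the meal effect differed between diets by 2.49 (SE 0.30, limma adjusted p = 0.00762), and 0.131% of the 11434 genes passed in either direction. This call was close to the threshold of 0.01, and the adjusted p was 0.00454 to 0.0271 when each of the 12 mice was left out in turn, and stayed under 0.01 only without an unfed obese mouse. Before the meal Angptl4 was lower in obese than in lean mice by 0.92 (SE 0.22, limma adjusted p = 0.0360), and after it was higher by 1.56 (SE 0.22, limma adjusted p = 0.0237). Neither passed 0.01. The groups did not overlap in either case, and the share of all genes without overlap was not counted.

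Angptl8 rose with the meal on each diet. Lean mice had 8.44, 6.69, and 6.31 RPKM unfed and 182, 142, and 268 fed, a ratio of 27.6 between the means. The rise of 4.65 (SE 0.25, limma adjusted p = 1.11e-05) was the second largest in size of all genes tested. Obese mice had 15.0, 13.5, and 18.2 RPKM unfed and 73.1, 134, and 92.9 fed, and the rise was 2.61 (SE 0.25, limma adjusted p = 0.00227), a ratio of 6.43. Without unfed obese replicate 2, fed obese replicate 2, or fed obese replicate 3 the latter had a limma adjusted p of 0.0103, 0.0101, and 0.0190, short of 0.01. The 4 groups did not overlap at any step of their order, from unfed lean through unfed obese and fed obese to fed lean.

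The difference between diets in the Angptl8 meal effect was -2.04 (SE 0.35), at a limma adjusted p of 0.0300 that missed 0.01. Angptl8 was higher in unfed obese than unfed lean mice by 1.07 (SE 0.25, limma adjusted p = 0.0360) and lower in fed obese than fed lean mice by 0.97 (SE 0.25, limma adjusted p = 0.0964), neither past 0.01. With the meal 7% of genes rose and 3.23% fell in lean mice, and 0.962% rose and 0.262% fell in obese mice. Between diets 0.420% of genes were higher and 0.350% lower in unfed obese mice, while after the meal 0% were higher and 0% lower by limma, with 2284 genes at an unadjusted p under 0.05. Rises made up 68.4% of lean meal calls and 54.5% of unfed diet calls, and 46.5% and 33.0% after median-ratio scaling.

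Angptl6 did not pass the test in any of the 14 comparisons. Its group means ranged from 6.55 to 8.96 RPKM in the obesity experiment, and its largest difference anywhere was 0.30 (SE 0.15, limma adjusted p = 0.264) between unfed obese and unfed lean mice. Of its 1564 exon bases, 264 lie in exons of Shfl, an antiviral gene read from the other strand, and the strand counted is not given in the sources used here. Shfl was 2.91 to 31.3 RPKM and rose with the meal in lean mice by 1.14 (SE 0.11, limma adjusted p = 1.95e-04), where Angptl6 differed by 0.28. It was also higher in unfed obese than unfed lean mice by 0.87 (limma adjusted p = 0.00271), where Angptl6 had its difference of 0.30, and lower in L-IRSdKO mice by 0.73 (limma adjusted p = 0.0191), where Angptl6 differed by less than 0.01. The part of shared reads was not tested. Dock6, which encloses Angptl8 and codes for an activator of small GTPases, was 1.01 to 5.82 RPKM. It passed the test only for the meal in lean mice, with 0.47 (SE 0.11, limma adjusted p = 0.00987).

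Because RPKM is scaled to length, the levels of Angptl8 and Angptl4 can be set side by side in each liver. Angptl4 exceeded Angptl8 in all 14 unfed or ZT10 livers of the NRF, injected, and obesity experiments, by 2.83-fold to 33.7-fold in RPKM. Angptl8 exceeded Angptl4 in all 12 livers of fed mice without a drug in the same experiments, by 1.06-fold to 16.8-fold. With dex or S961 alone, Angptl8 was the higher in 1 of 4 livers each, and with the combination in 0 of 4, where Angptl4 was 5.60-fold to 12.7-fold higher. Among unfed mice, AAV-CRE was the only group of the 7 unfed or ZT10 groups in which Angptl8 exceeded Angptl4 in any liver, namely 2 of 4.

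**Figure D4:**
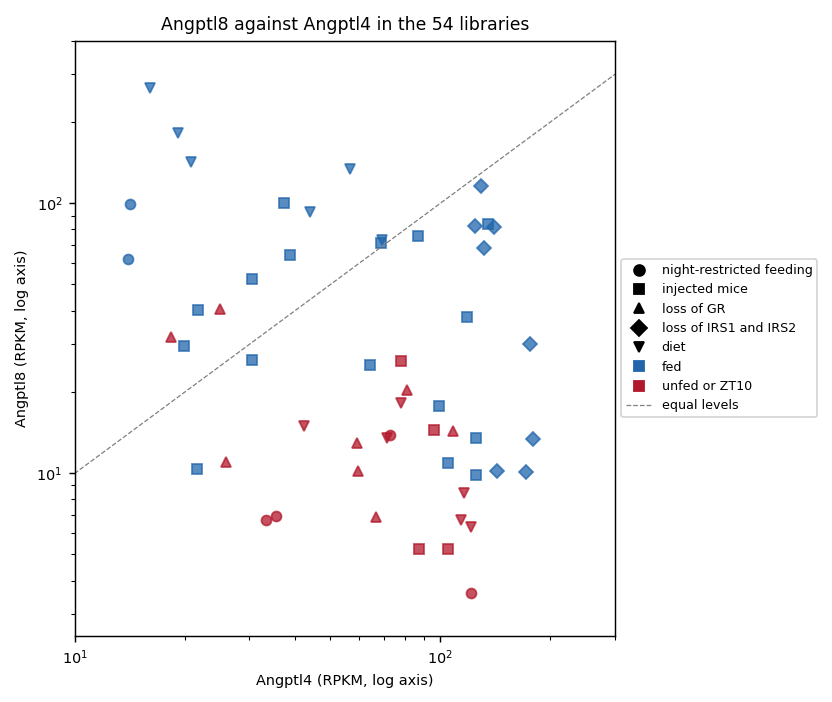
Angptl8 against Angptl4 RPKM (log axes) in the 54 libraries, with symbols for the experiment, blue for fed and red for unfed or ZT10 livers, and a dashed line of equal levels. Fed livers without a drug lie above the line, and all but 2 of the unfed or ZT10 livers below it.

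Over the 54 libraries, with each gene centred on the mean of its experiment, the log2 levels of Angptl4 and Angptl8 had a Pearson r of -0.57, and neither was close to Angptl6 (r = -0.02 and 0.20). These points share libraries, experiments, and treatments, and the values are descriptions. Among 10520 genes the 5 most like Angptl4 were Dnmbp (r = 0.89), Lpin2 (0.83), Slc25a47 (0.83), Klf11 (0.83), and G6pc (0.81), of which Lpin2 codes for a phosphatidate phosphatase and G6pc for the last enzyme of glucose output. Closest to Angptl8 were Mid1ip1 (r = 0.87), a partner of acetyl-CoA carboxylase, Irgq (0.86), Hdhd3 (0.85), Slc16a6 (0.84), a ketone body carrier, and Alg12 (0.83). For Angptl6 they were R74862 (r = 0.73), Tnks1bp1 (0.73), Rab8a (0.69), Bsg (0.66), and Masp2 (0.65).

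Of the other family members listed, Angptl2 was 2.16 to 8.59 RPKM and passed the test in none of the 14 comparisons, and Angptl1 and Angptl7 were below the filter of 0.5 RPKM in all experiments apart from Angptl7 in L-IRSdKO mice. A list of 21 genes of lipoprotein breakdown and uptake, the pathway on which ANGPTL4 and ANGPTL8 act, had 20 genes tested in each comparison. With the meal in lean mice Sdc1, a receptor of lipoprotein remnants, rose and Lipg, an endothelial lipase, fell, and the median was -0.03 against 0.08 over all genes. Summed genes of endothelial cells, a source of Lipg, were 57.6 to 68.6 RPKM in unfed lean, 42.1 to 49.3 in fed lean, 33.2 to 41.9 in unfed obese, and 40.9 to 43.6 in fed obese mice, and their part in the Lipg values was not tested. In obese mice Sel1l, which is needed for lipase maturation, rose, as it did with the meal in injected mice. Loss of IRS1 and IRS2 gave 5 rises and 3 falls of the 20, where 9.06% of all genes rose and 8.31% fell, with a median of 0.11 against 0.03. Among the rises was Lpl, the lipase itself, at 18.6 RPKM in L-IRSdKO and 3.14 in floxed mice (difference 2.22, SE 0.49, limma adjusted p = 0.0174). Summed Kupffer cell genes were 258 to 330 RPKM in L-IRSdKO and 145 to 269 in floxed mice, and their part in the Lpl values was not tested. The combination of dex and S961 gave 1 rise (Lipg, 0.73) and 1 fall (Sel1l, -0.60), where 2.70% of all genes rose and 7.90% fell. Lipg also differed between diets in its meal effect by 2.01 (SE 0.24, limma adjusted p = 0.00762).

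Lists of PPARα targets (20 genes), insulin and lipogenic targets (15), and glucocorticoid targets (14) place the members beside their known regulators. With the meal in lean mice the lipogenic genes Mid1ip1 and Srebf1 rose, while 7 of 14 glucocorticoid targets fell, where 3.23% of all genes fell. The medians of PPARα, lipogenic, and glucocorticoid targets were -0.30, 0.50, and -1.42 against 0.08 over all genes. For the meal in obese mice the same medians were 0.28, -0.18, and 0.04 against 0.02. S961 raised 7 of 20 PPARα targets, led by Fgf21, Plin2, Acot1, and Cidec, where 0.942% of all genes rose. Their median was 0.54 against -0.08, while Srebf1 fell and Elovl5 rose. The combination raised 6 PPARα and 11 glucocorticoid targets (medians of 0.38 and 0.97 against -0.14), where 2.70% of all genes rose. It lowered the lipogenic genes Srebf1, Mid1ip1, and Fasn, where 7.90% of all genes fell, and the lipogenic median was 0.09. In L-IRSdKO mice 9 PPARα targets rose and 1 fell, and 3 lipogenic genes rose and 6 fell, where 9.06% of all genes rose and 8.31% fell. The medians were 0.24 and -0.49 against 0.03 over all genes. With GR loss, 4 PPARα targets rose and 1 fell (median 0.50 against 0.08). Among lipogenic genes 5 rose and 2 fell there (median 0.67), where 4.46% of all genes rose and 2.22% fell. With dex alone, 1 PPARα target rose and 2 fell (median -0.22 against -0.10), where 1.00% of all genes rose and 2.19% fell. No lipogenic gene passed with dex alone (median -0.10).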

How the data were processed

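RNA of 54 single-mouse livers was measured by RNA-seq. The authors mapped reads to mm9 with STAR and deposited RPKM values per RefSeq transcript ID, without counts, and the strand counted and tool versions are not given in the sources used here. The GR and FOXO1 peaks and DHSs were called by the authors with HOMER on mm9, and only their positions were used. IDs were matched to symbols (35407 of 35707), and where a symbol had several IDs the one with the highest mean was kept. Each experiment was fitted on its own with all its groups by limma 3.58.1 (R 4.3.3) on log2(RPKM + 0.5), with the trend option, leaving out genes whose mean over the experiment was under 0.5 RPKM, and BH adjusted over all genes tested. Thresholds were 0.01 (NRF and obesity) and 0.05 (others). P-values measure the spread between mice. Where groups are said not to overlap, the share of all genes without overlap was not counted. Depth was estimated from the RPKM step of 1 read, with values whole within 0.15 reads counted as whole. Likeness was Pearson's r of log2 levels after centring on each experiment, and the 5 genes with the highest r were named. Genes of a list were named by the largest difference among those past the threshold, up to 4 per list and comparison, and a few others after their values were seen. Replicate numbers were not taken to pair mice, since same-numbered mice of different groups correlated at r from -0.20 to 0.61 and not above 0.1 in every pair of any experiment. In injected mice, where replicate 4 is a second library series, their median r was 0.14 against -0.05 for other pairs. No identical pair was found among 1431 pairs of libraries. The scripts were tested on simulated data. Alternatives changed the pseudocount, filter, scaling, groups fitted, block, left-out mouse, RefSeq ID, library series, and peak window. The members and lists were chosen with earlier results of these data known. H3K27Ac and peak signal by condition were not analysed here. One gene of the lipogenic list is not reported here by name.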

Additional observations from a re-analysis of the deposited data

Results flagged for a closer look

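Within groups of 4, the gap between the highest or lowest library and its neighbour was compared with the range of the group by Dixon's criterion, and 5 of 27 sets of 4 libraries passed it, where chance passes about 1 in 20. Angptl4 was 108 RPKM in AAV-GFP replicate 1 and 80.8 in AAV-CRE replicate 3, each the highest of its group. Angptl6 was 7.62 RPKM in fed dex replicate 4 and 18.3 in floxed Irs1 and Irs2 replicate 2. Replicate 4 of injected mice is the second library series. It was also the highest for Angptl6 with fed vehicle (5.44 RPKM), fed S961 (6.43), and the combination (5.01). In unfed vehicle mice it was 5.81, below the 6.19 of replicate 1. The part of the series was not tested here. Angptl8 was 30.1 RPKM in L-IRSdKO replicate 1, still below the 68.1 RPKM of the lowest floxed mouse. The interaction of diet and meal for Angptl4, 2.49 on the log2 scale, is a tested difference between lean and obese mice in the same contrast.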

How the results depend on the processing

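Of 12 differences past their threshold, 8 stayed past it in the same direction under all alternatives run, and the other 4 lost it under some (22 of 193 values in all); of 30 that were not past it, 14 kept side and direction under all. With the replicate block, Angptl4's interaction of diet and meal was 2.49 at a limma adjusted p of 0.0233, and Angptl8's dex difference was -1.49 at 0.0202, past 0.05; the block moved no other difference across its threshold. Same-numbered mice correlated at a median r of -0.04 to 0.14 by experiment. Without the filter the interaction was again 2.49 (limma adjusted p = 0.0279) and Angptl4's NRF meal difference -2.70 (0.0242), both short of 0.01. With the filter at 2 RPKM Angptl4's ZT14-unfed against ZT10 difference was 1.43 (0.00519) and Angptl8's NRF meal difference 3.36 (0.00559), both past it. With the compared groups alone, Angptl8's meal difference in obese mice was 2.61 (0.0348) and Angptl4's diet difference after the meal 1.56 (0.00623). With a term for the library series Angptl8's dex difference was -1.49 (0.0201). In the first library series alone, chosen after seeing the data, Angptl6's S961 difference was -0.01 and its interaction of dex and S961 0.05. Median-ratio scaling gave 0.05 for Angptl4 with dex and -0.06 for Angptl6 with the NRF meal. The cause of these shifts was not tested.

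Leaving out each mouse in turn gave these ranges on the log2 scale. Angptl4 ranged from 2.22 to 2.65 for the interaction of diet and meal (past 0.01 in 3 of 12), from -0.42 to 0.02 for the meal in obese mice, from -1.62 to -0.91 for GR loss, from -0.40 to 0.15 for dex, from 0.31 to 0.42 for IRS1 and IRS2 loss, from 1.07 to 1.80 for ZT14-unfed against ZT10, and from -3.06 to -2.33 for the NRF meal. Angptl8 ranged from 2.38 to 2.81 for the meal in obese mice, from 0.83 to 1.44 for GR loss, from -0.11 to 0.34 for S961, from 2.46 to 4.27 for the NRF meal, and from -0.84 to 0.98 for ZT14-unfed against ZT10. Angptl6 ranged from -0.05 to 0.28 for dex, from -0.13 to 0.16 for S961, from -0.11 to 0.17 for the combination, from -0.27 to 0.06 for the interaction of dex and S961, from -0.07 to 0.19 for the NRF meal, and from -0.26 to 0.01 for ZT14-unfed against ZT10. In the NRF experiment this leaves a lone mouse, assumed to vary like the other groups.

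Within 20 kb, Angptl4 had 1 GR peak, 2 FOXO1 peaks, and 5 DHSs, and Angptl8 10 DHSs. Within 100 kb, Angptl4 had 19 DHSs, Angptl6 1 GR peak, 1 FOXO1 peak, and 15 DHSs, and Angptl8 5 GR peaks, 4 FOXO1 peaks, and 25 DHSs. The analysis used RPKM and not counts, so counting error enters only through the spread between mice.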
